A study of Mus musculus with 62 samples.

Results

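Gene levels in 2 forebrain regions of unstressed mice were compared, the nucleus accumbens (NAc), which is the ventral part of the striatum, and the prefrontal cortex (PFC). All libraries labelled CTR were taken, 15 of the PFC and 16 of the NAc, which together are 31 of the 62 libraries of the series. The mice were male C57BL/6J wild types, 15 weeks old at tissue collection, and carried no transgene. CTR mice went through behavioural tests but not through the multimodal chronic restraint stress (mCRS) given to the other mice. By the study's methods both regions were taken from the same mice, from a single hemisphere of each, and snap frozen. Which PFC library belongs with which NAc library is not stated, and libraries were treated as independent. Poor PFC libraries had been removed by the authors. RNA was sequenced by BRB-seq, a 3′-end method that tags every sample during reverse transcription from the poly(A) tail and then pools them.

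Most neurons of the PFC are glutamatergic pyramidal cells, which load glutamate into vesicles, express calcium and calmodulin signalling proteins and are specified by cortical transcription factors. Most neurons of the NAc are GABAergic spiny projection neurons, which receive dopamine from the midbrain, signal through dopamine receptors, cAMP and DARPP-32, and release opioid peptides or substance P together with GABA. In bulk tissue, fewer cells of a type and less RNA per cell cannot be told apart, so every value below is a level per library and not per cell.

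Counts covered 11121 genes. Library totals lay between 1556146 and 4203018 counts in the PFC and between 945286 and 4857359 in the NAc. Levels below are in CPM, counts scaled to the library total after TMM factors, which align libraries on the bulk of their genes. CPM is not corrected for gene length, so levels are compared between libraries and not between genes. The summed CPM of 30 genes of cortical excitatory neurons lay between 16257 and 20691 in the PFC and between 3777 and 7596 in the NAc, with no overlap. In 15 of the 16 NAc libraries the summed CPM of 36 striatal signalling genes lay between 6855 and 15555, above the highest PFC library at 5870. The library labelled NAc CTR 7 was the exception, at 2814, below every PFC library. Its Drd1 level was 0.417 CPM and its Penk level 143 CPM, while the other NAc libraries held at least 65.4 CPM of Drd1 and at least 994 CPM of Penk. It also held 937 CPM of Avp and 1492 CPM of Oxt, both the highest of any library, and the lowest cortical sum. Its striatal markers thus go against its label, and it does not resemble the PFC either. The library labelled NAc CTR 2 had the fewest counts, with 71.55% of genes counted, and held 258 CPM of Meis1 against at most 36.9 CPM elsewhere. Values without both libraries stand beside some of the results that changed when both were left out, but not beside every one.

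**Figure D1:**
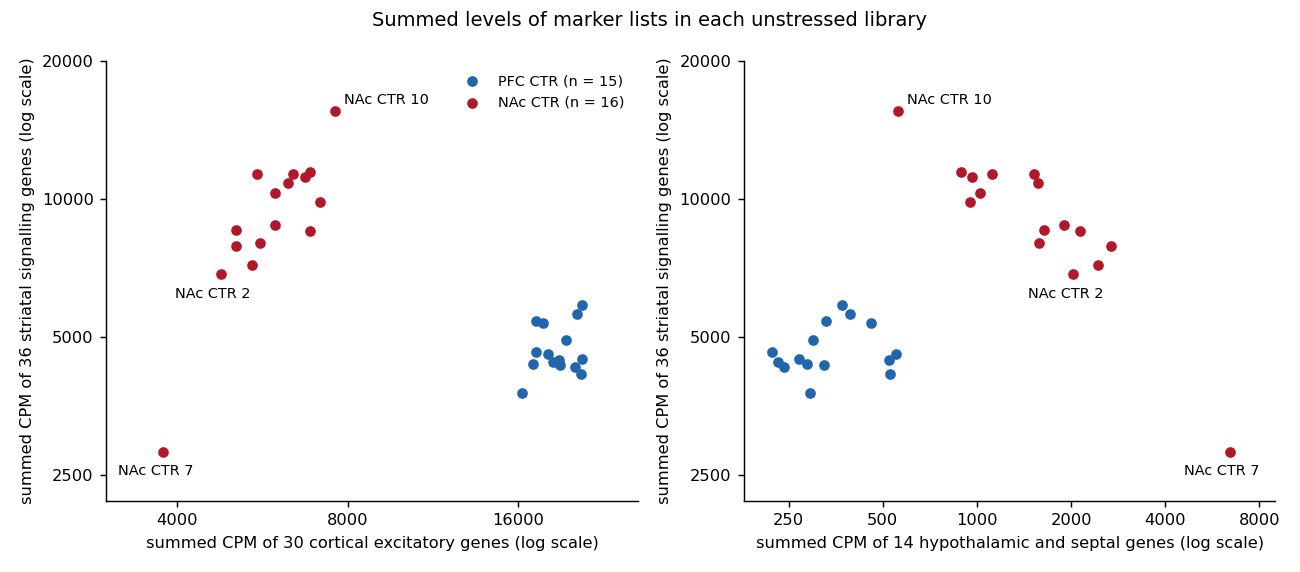
Summed CPM of 36 striatal signalling genes (vertical, log scale) against that of 30 cortical excitatory genes (left) and of 14 hypothalamic and septal genes (right), 1 point per unstressed library. PFC and NAc separate on the cortical sum without overlap, and NAc CTR 7 lies at 2814 on the striatal sum and 6419 on the hypothalamic one, away from the other NAc libraries. Sparc, also made by glia, takes up 2701 CPM of that 6419, and 360 of 559 CPM in NAc CTR 10.

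With edgeR's quasi-likelihood test over 9932 genes that passed the filter on low counts, 628 genes differed between the regions at a Benjamini-Hochberg false discovery rate (FDR) below 0.05, which is 6.32% of those tested. Of these, 208 (2.09%) were higher in the NAc and 420 (4.23%) higher in the PFC. Calls in the gene lists below are to be set beside these shares. A change of at least 2-fold was seen for 144 genes (1.45%) in favour of the NAc and 224 (2.26%) in favour of the PFC. The share of NAc calls depends on the scaling. With total counts alone, 289 genes were higher in the NAc and 287 in the PFC, and the median log2 fold change of all genes moved from 0.02 to 0.15. Fold changes are NAc minus PFC on the log2 scale, so a positive value is a higher level in the NAc. The filter keeps a gene that is high in a single region. For a gene near 0 CPM in the other region, the direction thus follows from passing the filter. In 12 genes (0.121%) every NAc library lay above every PFC library, and in 30 genes (0.302%) the reverse held. The 12 were Tac1, Gad2, Unc13c, Slc32a1, Six3, Cartpt, Zbtb20, Scg2, Dlk1, Ecel1, Sv2c and Ap1s2.

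**Figure D2:**
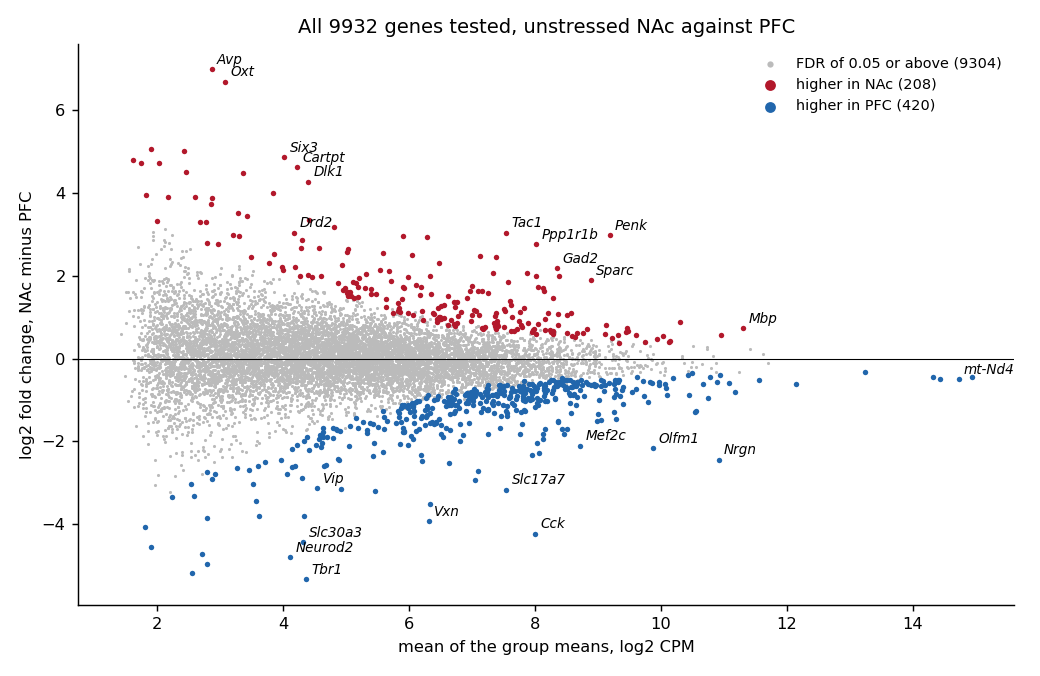
Log2 fold change (NAc minus PFC) of all 9932 genes tested against their mean level in log2 CPM. Red points are the 208 genes higher in the NAc and blue points the 420 higher in the PFC at an FDR below 0.05. Avp and Oxt have the largest fold changes toward the NAc and Tbr1 toward the PFC.

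The genes of highest statistical weight in the PFC belonged to glutamatergic pyramidal neurons. Nrgn (chr9:37544492-37552904, GRCm38), which encodes the calmodulin-binding postsynaptic protein neurogranin, ranged from 3208 to 6157 CPM in the PFC with a median of 4514. Its range in the NAc was 545 to 1297 CPM with a median of 836. The groups did not overlap, and the log2 fold change was -2.45 (SE 0.12, FDR = 1e-23). For Cck (chr9:121489824-121495694), the precursor of cholecystokinin, the PFC libraries held 834 to 1633 CPM with a median of 1118, against 3.92 to 134 CPM with a median of 63.1 in the NAc. Every PFC library exceeded every NAc library by a wide margin, and the log2 fold change was -4.23 (SE 0.22, FDR = 4.24e-22). Olfm1 (chr2:28192992-28230736), a secreted olfactomedin of neurons, also separated the groups, with medians of 2048 and 420 CPM and a log2 fold change of -2.16 (SE 0.12, FDR = 1.06e-20).

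Among genes of glutamate transmission the region difference was largest in the vesicle transporters. Slc17a7 (chr7:45163949-45176142), the vesicular glutamate transporter VGLUT1, ranged from 438 to 1054 CPM in the PFC (median 653) and from 3.13 to 154 CPM in the NAc (median 77.8). The groups did not overlap (log2 fold change -3.17, SE 0.29, FDR = 1.5e-12). Slc30a3, which fills the same vesicles with zinc, had medians of 126 CPM in the PFC and 2.26 CPM in the NAc, again with no overlap (log2 fold change -4.44, FDR = 1.6e-07). The glutamine transporter Slc38a1 was higher in the NAc (log2 fold change 0.67, FDR = 0.0268), a call lost without PFC CTR 13, NAc CTR 4 or NAc CTR 8 (largest FDR = 0.0681). Of the 11 genes tested on this list 3 were higher in the PFC and 1 in the NAc. Slc30a3, near 0 CPM in the NAc, could pass the filter on low counts only because of its PFC levels. Not called were, among others, the glial glutamate transporters Slc1a2 at -0.34 and Slc1a3 at 0.03 on the log2 scale. Slc17a6 (VGLUT2), used by thalamic and other subcortical neurons, had medians of 2.21 CPM in the PFC and 32.0 CPM in the NAc, with an FDR of 0.0755.

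GABA transmission was higher in the NAc across the list. Of 7 genes tested, 6 were higher in the NAc and 0 in the PFC, with a median log2 fold change of 1.40 beside 0.02 for all genes. Gad2 (chr2:22622205-22693874), one of the pair of enzymes that make GABA, ranged from 20.8 to 306 CPM in the PFC (median 147) and from 467 to 1159 CPM in the NAc (median 748). Slc32a1 (chr2:158610767-158615748), which loads GABA into vesicles, ranged from 6.00 to 194 CPM in the PFC (median 94.0) and from 223 to 524 CPM in the NAc (median 376). Neither gene overlapped between the groups, and the log2 fold changes were 2.18 (SE 0.20, FDR = 1.68e-12) and 2.08 (SE 0.25, FDR = 1.05e-08). Gad1, the other GABA-making enzyme, had a smaller log2 fold change of 1.05 (FDR = 5.91e-06), with NAc libraries from 388 to 940 CPM and PFC libraries from 115 to 466 CPM. Uptake and breakdown genes moved in the same direction: the astrocyte transporter Slc6a11 by 2.05 (FDR = 0.00415) and the transaminase Abat by 1.29 (FDR = 1.03e-06).

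Of 4 genes of acetylcholine transmission 2 could be tested, and both were higher in the NAc, beside 2.09% of all genes. The choline transporter Slc5a7, found in cholinergic terminals, had a median of 0 CPM in the PFC, at most 12.8 CPM, and a median of 18.9 CPM in the NAc (log2 fold change 4.72, SE 1.05, FDR = 0.00135). Slc5a7 could pass the filter on low counts only because of its NAc levels, so its direction is no separate result. Ache, the acetylcholinesterase, rose from a median of 23.3 to 78.8 CPM (log2 fold change 1.70, FDR = 0.0042). Chat, the enzyme that makes acetylcholine, had 0 counts over the 15 PFC libraries and 313 counts in 11 of the NAc libraries. It was too low to be tested. Against a floor of 3 counts over the whole PFC group it was at least 80.5-fold higher in the NAc, a bound that covers counting error only. Monoamine genes gave 0 calls among 4 tested with edgeR, 0 at an unadjusted p below 0.05, and 0 with DESeq2. Both regions receive monoamines from distant cell bodies, and most genes of monoamine synthesis and release were not analysed here.

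Neuropeptides divided between the regions. Of 26 tested, 10 were higher in the NAc and 6 in the PFC, and without NAc CTR 2 and 7 these numbers were 8 and 7. The called share was 61.54%, beside 6.32% of all genes. Among the 10, Cartpt, Nts, Avp, Oxt and Trh could pass the filter on low counts only because of their NAc levels. All were near 0 CPM in the PFC, so their direction is no separate result. Penk (chr4:4133531-4138819), the enkephalin precursor of the indirect-pathway spiny neurons, ranged from 74.1 to 509 CPM in the PFC (median 199) and from 143 to 2957 CPM in the NAc (median 1896). The log2 fold change was 2.98 (SE 0.24, FDR = 1.65e-14), and the overlap came from NAc CTR 7 alone. Tac1 (chr6:7554879-7565834), the substance P precursor of the direct-pathway neurons, ranged from 15.5 to 156 CPM in the PFC (median 65.9) and from 229 to 828 CPM in the NAc (median 597). Here no library overlapped, NAc CTR 7 included, and the log2 fold change was 3.05 (SE 0.23, FDR = 1.07e-15). Pdyn, the dynorphin precursor of the same neurons, had medians of 51.7 and 195 CPM (log2 fold change 1.72, FDR = 0.00119).

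Cartpt (chr13:99898489-99901091), the precursor of the CART peptides, was near 0 in the PFC with a median of 0.901 CPM and at most 28.2 CPM. Its NAc libraries held 35.8 to 229 CPM, so the groups were apart (log2 fold change 4.62, SE 0.59, FDR = 3.11e-08). Nts, neurotensin, had medians of 0.376 and 76.9 CPM (log2 fold change 3.52, FDR = 0.00181). Toward the PFC, besides Cck, lay Vip and Npy, peptides of cortical interneurons. Vip had medians of 78.6 CPM in the PFC and 6.80 CPM in the NAc (log2 fold change -3.13, FDR = 9.85e-05), and Npy of 172 and 64.6 CPM (log2 fold change -1.31, FDR = 0.00192). Somatostatin, Sst, another interneuron peptide, had medians of 525 and 447 CPM and was not called (log2 fold change -0.35, FDR = 0.196).

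**Figure D3:**
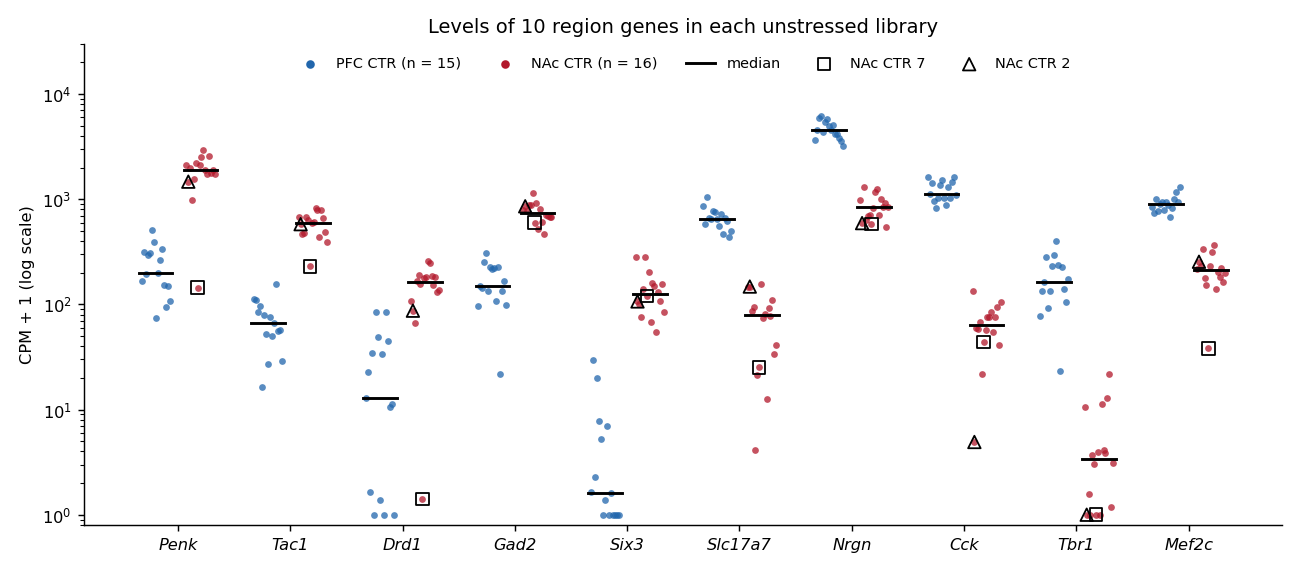
CPM plus 1 (log scale) of 10 genes in each of the 15 PFC and 16 NAc libraries, with group medians as bars. NAc CTR 7 (square) is the only NAc library inside the PFC range for Penk, at 143 CPM, and it holds 0.417 CPM of Drd1, while Tac1, Gad2 and Six3 separate the groups with all libraries in.

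Receptors for dopamine and adenosine were higher in the NAc for 3 of the 4 genes tested, beside 2.09% of all genes. Drd1, Drd2 and Adora2a had counts in 12, 9 and 12 of the 15 PFC libraries. That is too few to pass the filter on low counts through the PFC alone, which leans the 3 of 4 toward the NAc. Drd1 (chr13:54051183-54055705), the receptor of the direct pathway, ranged from 0 to 83.3 CPM in the PFC (median 11.9) and from 0.417 to 256 CPM in the NAc (median 162). Drd2 (chr9:49340627-49408177), the receptor of the indirect pathway, ranged from 0 to 31.3 CPM in the PFC (median 7.79) and from 16.7 to 171 CPM in the NAc (median 77.6). Adora2a (chr10:75316877-75334784), the adenosine receptor found beside Drd2 in striatal neurons, had medians of 5.51 and 109 CPM. The log2 fold changes were 2.57 (SE 0.56, FDR = 0.00105) for Drd1, 3.04 (SE 0.65, FDR = 0.000815) for Drd2 and 3.35 (SE 0.58, FDR = 3.39e-05) for Adora2a, and without NAc CTR 2 and 7 they were 2.70, 3.02 and 3.46. All 3 genes overlapped between the groups, with the highest PFC libraries above the lowest NAc ones. Adora1, the widely expressed A1 receptor, was not called (log2 fold change -0.39, FDR = 0.491). Drd3 was not analysed here.

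Orphan receptors enriched in the striatum followed, with 3 of 4 genes higher in the NAc and 4 without NAc CTR 2 and 7. Gpr6 had medians of 0.628 CPM in the PFC and 55.4 CPM in the NAc (log2 fold change 2.97, FDR = 0.0128) and Gpr83 of 49.2 and 138 CPM (log2 fold change 1.55, FDR = 0.000695). Among serotonin and noradrenaline receptors only Htr1b of the 8 tested passed, at a log2 fold change of 2.78. Its FDR was 0.0465, and 20 of the 31 libraries could each undo the call when left out. Gpr6 and Htr1b, both at a median of 0.628 CPM in the PFC, could pass the filter on low counts only because of their NAc levels.

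Receptors for the fast transmitters are set beside 6.32% of all genes called and 4.23% called higher in the PFC. Of 17 AMPA, NMDA and kainate receptor genes, 3 (17.65%) were higher in the PFC and 0 in the NAc, while DESeq2 called 3 and 2. Fold changes were positive for 9 and negative for 8, and their median on the log2 scale was 0.02. The 3 were the AMPA subunits Gria3 (-1.13, FDR = 1.34e-05) and Gria2 (-0.56, FDR = 0.0102) and the NMDA subunit Grin2a (-1.07, FDR = 0.000554). With total counts alone Gria2 was not called (FDR = 0.072). GABA receptors gave 3 PFC genes (21.43%) and 0 NAc genes of 14. Among the 3 was Gabbr2, a subunit of the metabotropic GABA receptor (log2 fold change -0.87, FDR = 0.0122). Cckbr, the receptor for cholecystokinin, was higher in the PFC with medians of 80.3 and 5.96 CPM (log2 fold change -2.88, SE 0.58, FDR = 0.000381), the same side as its ligand gene Cck. It was the 1 call by edgeR among 11 opioid and peptide receptors, and DESeq2, or edgeR without NAc CTR 2 and 7, added 1 higher in the NAc. The kappa opioid receptor Oprk1 had medians of 5.03 and 37.2 CPM and an FDR of 0.0815.

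Endocannabinoid genes lay toward the PFC, with 3 of 7 called and a negative fold change for all 7. Cnr1, the CB1 receptor, ranged from 98.6 to 574 CPM in the PFC (median 227) and from 17.9 to 166 CPM in the NAc (median 93.9), with a log2 fold change of -1.30 (SE 0.24, FDR = 9.69e-05). Among enzymes that break down its ligands, Mgll at -1.01 (FDR = 2.88e-05) and Faah at -1.84 (FDR = 0.0263) were called, and Abhd6 (medians 88.4 and 67.1 CPM) and Abhd12 (283 and 276 CPM) were not. The synthesizing enzyme Dagla was not called at -0.39. Faah passed neither without PFC CTR 2 nor without PFC CTR 10 (largest FDR = 0.0793), nor with total counts alone.

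Striatal signalling genes, the cAMP and calcium machinery downstream of dopamine receptors, were higher in the NAc for 17 of 35 tested and higher in the PFC for 2, with a median log2 fold change of 1.5. Ppp1r1b (chr11:98348404-98357796), which encodes DARPP-32, ranged from 15.5 to 245 CPM in the PFC (median 134) and from 55.4 to 1521 CPM in the NAc (median 884). It was called at a log2 fold change of 2.76 (SE 0.29, FDR = 9.27e-11). Rgs9, which shortens G protein signals in spiny neurons, had medians of 24.05 and 234 CPM (log2 fold change 2.95, SE 0.37, FDR = 2.08e-08). Adcy5, the main striatal adenylyl cyclase, had medians of 120 and 577 CPM (log2 fold change 2.0, SE 0.19, FDR = 1.19e-11). The G protein subunits that couple receptors to this cyclase, Gnal and Gng7, were higher by 1.71 (FDR = 1.1e-08) and 2.07 (FDR = 7.18e-08), and the phosphodiesterase Pde10a by 2.46 (FDR = 3.65e-08). Without NAc CTR 2 and 7 the list held 20 NAc calls in place of 17. Rgs4 and Sytl2 on the same list were higher in the PFC, at -0.68 (FDR = 0.0113) and -1.66 (FDR = 0.00346).

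**Figure D4:**
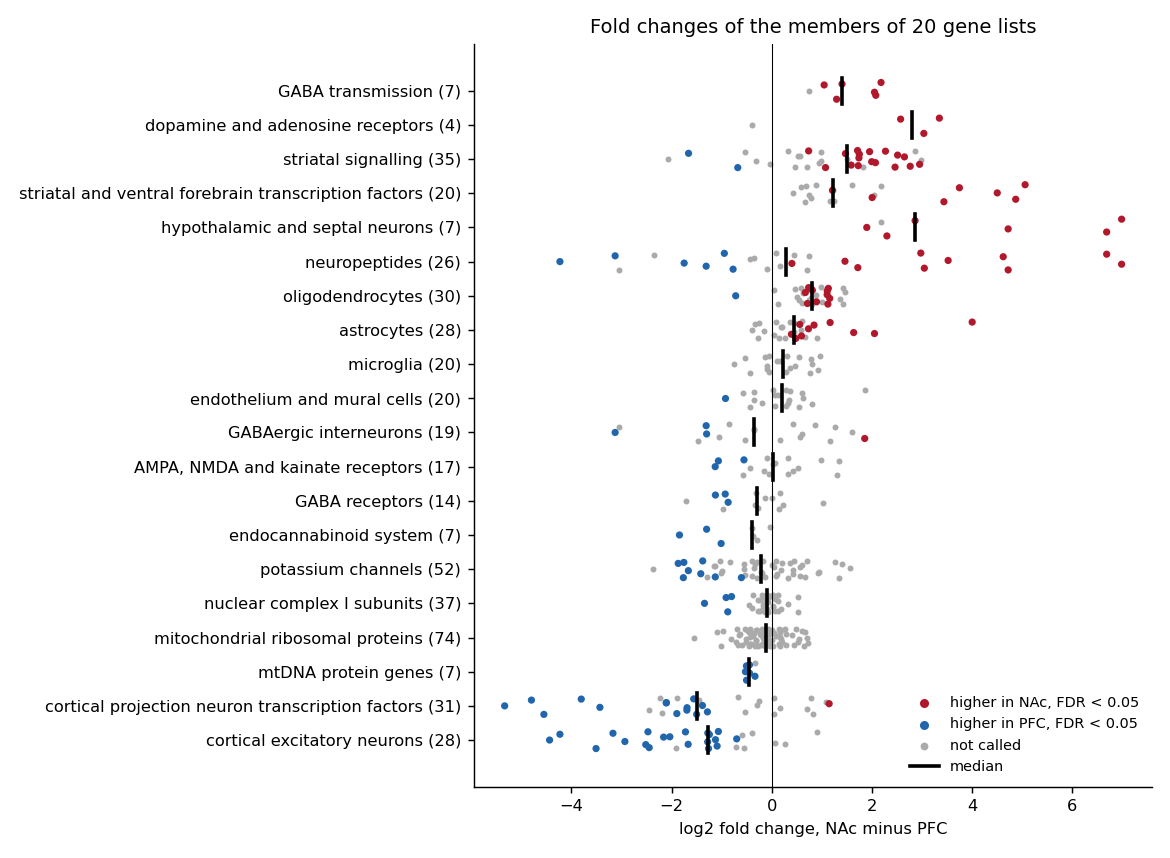
Log2 fold change (NAc minus PFC) of each tested member of 20 gene lists, with the number tested in parentheses and the median as a black bar. Red and blue points passed an FDR of 0.05. Striatal and GABA lists lie to the right, with 17 of 35 striatal signalling genes called, and the cortical lists to the left, with 20 of 28 cortical excitatory genes called.

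Transcription factors were grouped by the developmental origin of the regions, the ventral forebrain for the NAc and the pallium for the PFC. Six3 (chr17:85613608-85629302), a homeobox factor of striatal projection neurons, ranged from 0 to 28.9 CPM in the PFC (median 0.60) and from 54.0 to 282 CPM in the NAc (median 124). No library overlapped, and the log2 fold change was 4.87 (SE 0.62, FDR = 3.11e-08). Isl1, a factor of direct-pathway neurons, had medians of 0 and 30.5 CPM (log2 fold change 4.50, FDR = 0.000724), Foxp2 of 47.2 and 184 CPM (log2 fold change 2.0, FDR = 5.91e-06) and Bcl11b (Ctip2) of 173 and 369 CPM (log2 fold change 1.21, FDR = 0.000273). In all, 7 of 20 tested were higher in the NAc and 0 in the PFC, beside 2.09% and 4.23% of all genes. The fold change was positive for all 20. Six3, at a median of 0.60 CPM in the PFC, could pass the filter on low counts only because of its NAc levels. The same held for Isl1 and Meis1, both at a median of 0 CPM in the PFC. The direction of Six3, Isl1 and Meis1 is thus no separate result, and how many other members did so was not counted. Foxp1, with medians of 223 and 352 CPM, missed the threshold (log2 fold change 0.69, FDR = 0.0614), which 6 single libraries could change, but passed without NAc CTR 2 and 7 (log2 fold change 0.81, FDR = 0.00824). Ebf1 (0.78, FDR = 0.846) and Rarb (1.61, FDR = 0.221) were not called, both at under 100 CPM in every library. Meis1, called at 5.06 (FDR = 0.000722), was highest in NAc CTR 2 and was called at 4.20 (FDR = 0.00562) without NAc CTR 2 and 7. Without NAc CTR 2 and 7 the list held 9 NAc calls.

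On the cortical side, 14 of 31 transcription factors tested were higher in the PFC and 1 in the NAc, beside 4.23% and 2.09% of all genes. The list had a median log2 fold change of -1.5. Tbr1 (chr2:61802930-61814114), the T-box factor of deep-layer cortical neurons, ranged from 22.2 to 399 CPM in the PFC (median 164) and from 0 to 20.6 CPM in the NAc (median 2.39). Its groups did not overlap, and its log2 fold change of -5.33 (SE 0.54, FDR = 4.02e-11) was the largest toward the PFC of any called gene. Mef2c (chr13:83504034-83667080), an activity-regulated factor of pyramidal neurons, ranged from 672 to 1320 CPM and from 37.1 to 363 CPM (log2 fold change -2.10, SE 0.17, FDR = 2.68e-14). Neurod2 and Neurod6, factors of the pyramidal lineage, had medians of 134 and 114 CPM in the PFC and 0.843 and 0.102 CPM in the NAc (log2 fold changes -4.80 and -3.80). Neurod6 nevertheless reached 77.1 CPM in NAc CTR 1, 41.1 CPM in NAc CTR 13 and 12.7 CPM in NAc CTR 2, above the lowest PFC library at 5.68 CPM. Fezf2, the factor of subcortical projection neurons, was called at -3.43 (FDR = 0.00129) and Lmo4 at -1.50 (FDR = 9.49e-11). Tbr1, Neurod2, Neurod6 and Fezf2 could pass the filter on low counts only because of their PFC levels. Their NAc medians were at most 2.39 CPM, so their direction is no separate result. The upper-layer markers Cux2 (-0.68, FDR = 0.557) and Rorb (-0.53, FDR = 0.694) were not called, and Cux1 went the other way at 1.15 (FDR = 0.0069).

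Of 28 genes of cortical excitatory neurons, 20 were higher in the PFC and 0 in the NAc. The list had a median log2 fold change of -1.28. Beside the genes above, the called members included synaptic proteins. Stx1a, a syntaxin of the release machinery, had medians of 262 CPM in the PFC and 37.3 CPM in the NAc (log2 fold change -2.52, SE 0.26, FDR = 5.57e-11). The vesicle protein Sv2b had medians of 419 and 47.9 CPM (log2 fold change -2.93, SE 0.30, FDR = 5.21e-11), while its relative Sv2c showed the reverse, 18.0 and 159 CPM (log2 fold change 2.54, SE 0.42, FDR = 1.53e-05). Neither Sv2b nor Sv2c overlapped between the groups. Nptx1, a secreted pentraxin of excitatory synapses, had medians of 223 and 30.1 CPM (log2 fold change -2.47, SE 0.34, FDR = 1.48e-07), and Lamp5 of 306 and 115 CPM (log2 fold change -1.28, FDR = 2.14e-05). Snap25, a core release protein of all neurons, differed by less, with medians of 2404 and 1293 CPM and a log2 fold change of -0.96 (SE 0.09, FDR = 1.04e-11), yet its groups did not overlap either.

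Markers of GABAergic interneurons were mixed. Of 19 tested, 3 were higher in the PFC and 1 in the NAc, a called share of 21.05% beside 6.32% of all genes. The PFC genes were Vip, Npy and Cnr1, all described above. Nos1, the nitric oxide synthase of a sparse striatal and cortical interneuron type, was higher in the NAc, with medians of 17.6 and 85.1 CPM (log2 fold change 1.86, FDR = 0.00658). Parvalbumin, Pvalb, marker of fast-spiking cells, had medians of 58.4 and 42.9 CPM and was not called (log2 fold change -0.85, FDR = 0.469).

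Oligodendrocyte genes were higher in the NAc. Of 30 tested, 11 were higher in the NAc and 1 in the PFC, and 10 and 1 without NAc CTR 2 and 7. The fold change was positive for 29, with a median of 0.80. Mbp, myelin basic protein, ranged from 904 to 3236 CPM in the PFC (median 1930) and from 2482 to 4249 CPM in the NAc (median 3460). The groups overlapped, and Mbp was called at a log2 fold change of 0.74 (FDR = 2.64e-05), as was Cnp, an enzyme of myelin, at 1.12 (FDR = 7.09e-06). The exception was Enpp2 (autotaxin), at -0.72 and an FDR of 0.042 that did not hold with total counts alone or without any of 15 single libraries (largest FDR = 0.0834).

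Astrocyte genes gave 10 NAc calls and 0 PFC calls among 28, and 8 and 0 without NAc CTR 2 and 7, but the members did not move as 1 block. Agt, angiotensinogen, made by astrocytes of deep brain regions, had medians of 1.76 CPM in the PFC and 74.2 CPM in the NAc (log2 fold change 4.0, SE 0.66, FDR = 1.17e-05), and was highest in NAc CTR 7 at 438 CPM. Without NAc CTR 2 and 7 it was called at 3.64 (FDR = 0.00014). Apoe, the lipid carrier, was higher by 0.56 (FDR = 6.49e-05) and Id4 by 1.64 (FDR = 2.77e-05). Some general astrocyte markers were not called: Aqp4 at -0.39 (FDR = 0.78), Gfap at 0.91 (FDR = 0.46), Slc1a3 at 0.03 and Glul at 0.14. Aldoc, on the same list, was called at 0.39 (FDR = 0.0313), a call lost without any of 8 single libraries. Of the 28 members 23 had a positive fold change. Their summed CPM ranged from 8148 to 11270 in the PFC and from 11080 to 14190 in the NAc. Microglia gave 0 calls among 20 genes with edgeR, 2 at an unadjusted p below 0.05, and 0 with DESeq2. The median log2 fold change of the microglial list was 0.22. That of the list for endothelium and mural cells, with 1 PFC call (Ly6e, -0.94, FDR = 0.00167) among 20, was 0.20. This 1 call is a share of 5.0%, beside 6.32% of all genes.

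Genes listed for hypothalamic and septal neurons were counted in the NAc libraries. Avp (chr2:130580620-130582554) and Oxt (chr2:130576173-130577054), the vasopressin and oxytocin genes of hypothalamic magnocellular neurons, had medians of 82.1 and 94.5 CPM in the NAc and of 0 CPM in the PFC. Avp was counted in 14 of 16 NAc libraries and Oxt ranged up to 1492 CPM, both highest in NAc CTR 7, against at most 8.50 and 10.2 CPM in the PFC. Of 14 hypothalamic and septal genes counted, 7 could be tested. Of these 7, 6 were higher in the NAc, and 4 without NAc CTR 2 and 7 (median log2 fold change 2.86 and 2.21). Avp, Oxt and Trh, at a median of 0 CPM in the PFC, could pass the filter on low counts only because of their NAc levels. Their direction is thus no separate result. The summed CPM of the list ranged from 559 to 6419 in the NAc and from 221 to 552 in the PFC. Sparc took 360 of the 559 CPM in NAc CTR 10 and 217 of 269 CPM in PFC CTR 3. Pmch, Hcrt, Pomc and Agrp were not analysed here. Oxt was called at a log2 fold change of 6.69 (SE 0.82, FDR = 1.05e-08) and without NAc CTR 2 and 7 at 5.66 (FDR = 1.3e-06). Avp at 6.98 (SE 0.85, FDR = 1.1e-08) and Trh at 4.72 (FDR = 0.00145) failed the filter on low counts when both were left out and could not be tested then. Baiap3 (2.86, FDR = 0.00132), Hap1 (2.30, FDR = 6.54e-07) and Sparc (1.90, FDR = 3.25e-11), a matrix protein also made by glia, completed the calls. The source tissue of the transcripts of these genes, and its part in the other NAc differences, were not tested. Leaving out NAc CTR 2 and 7 gave 219 NAc and 437 PFC calls, and 584 of the 628 genes were called again in the same direction.

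Genes of the mitochondrial genome (mtDNA) were higher in the PFC in the pooled comparison. The 7 mtDNA protein genes took 12.9% ± 3.004 of counts in the PFC (SD, n = 15) and 10.3% ± 1.31 in the NAc (SD, n = 16), a difference of -2.56 percentage points (NAc minus PFC, SE 0.842, two-sided permutation test, p = 0.00434). Shares ranged from 8.86% to 18.2% in the PFC and from 8.43% to 12.2% in the NAc, with 7 PFC libraries above the highest NAc library. Of the 7 genes, 6 were called higher in the PFC, with log2 fold changes between -0.53 for mt-Co1, a complex IV subunit, and -0.34 for mt-Nd5, a complex I subunit, and 5 were called with total counts alone. The call for mt-Nd5 (FDR = 0.0348) was lost without any of 12 single libraries, and mt-Nd6 was not called (-0.33, FDR = 0.613). The mean log2 CPM of the 7 genes differed by -0.39 (SE 0.12, permutation p = 0.00302).

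This difference was not present throughout the libraries. Among libraries numbered 1 to 8 the mtDNA share was 11.1% ± 2.36 in the PFC and 11.1% ± 1.01 in the NAc (SD, n = 8 each), a difference of 0.036 percentage points toward the NAc (exact permutation test, p = 0.974). Among those numbered 9 and above it was 14.9% ± 2.33 in the PFC (SD, n = 7) and 9.51% ± 1.09 in the NAc (SD, n = 8), a difference of -5.41 (exact permutation test, p = 0.000622). The numbering is not labelled as a batch. The mean share of genes with counts moved with it: it was 89.4% in the PFC and 85.9% in the NAc for numbers 1 to 8, and 84.4% and 94.6% for the higher numbers. When that share entered the model, the difference in mtDNA share was -1.94 percentage points (permutation p = 0.0133). The part of RNA quality or depth in it was not tested further.

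**Figure D5:**
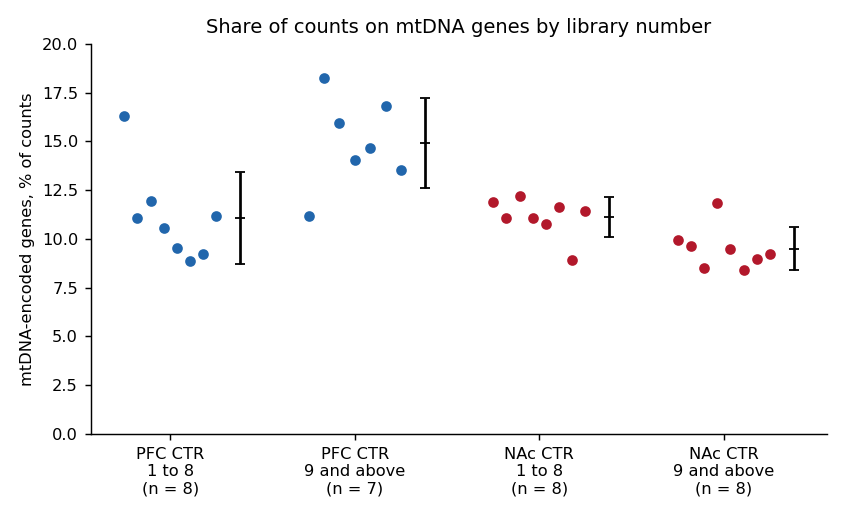
Share of counts on the 7 mtDNA genes in each library, by region and library number, with mean and SD in black. PFC libraries numbered 9 and above average 14.9% and NAc libraries of the same numbers 9.51%, while both regions average 11.1% among numbers 1 to 8.

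The calls among nuclear genes of the mitochondrion differed by complex, while list medians did not follow the calls. Beside them, 4.23% of all genes were called higher in the PFC. Complex I subunits gave 4 PFC calls and 0 NAc calls among 37 with edgeR (7 at an unadjusted p below 0.05), led by Ndufa4 at -1.34 (FDR = 1.42e-05). They gave 4 and 2 with DESeq2, and 4 and 1 without NAc CTR 2 and 7. Complex IV subunits gave 5 PFC calls among 11, led by Cox7a2 at -1.07 (FDR = 6.48e-06) and Cox7b at -0.91 (FDR = 0.000211). Mitochondrial ribosomal proteins gave 0 calls among 74 with edgeR, 4 at an unadjusted p below 0.05 and 0 with DESeq2. Complex V subunits gave 0 among 15 with edgeR, 4 at an unadjusted p below 0.05 and 0 with DESeq2. Their median log2 fold change was nevertheless -0.18. Subunits of complexes II and III, with 1 PFC call among 13 with edgeR, had a median of -0.205. With total counts alone the medians of complex V and of complexes II and III were -0.04 and -0.07. The medians of the complex I, ribosomal and complex IV lists were -0.10, -0.12 and -0.15, and with total counts alone they were 0.05, 0.02 and -0.02. Relative to the median of all genes under the same scaling, the 3 medians stayed between -0.10 and -0.12 for complex I, -0.13 and -0.14 for the ribosomal proteins and -0.16 and -0.18 for complex IV over 6 scalings and tools, with all libraries in. Without NAc CTR 2 and 7 the medians themselves were -0.12 for complex I, -0.16 for the ribosomal proteins and -0.315 for complex IV. Cytosolic ribosomal proteins had 13 PFC calls and 1 NAc call among 80, with total counts alone 7 and 3, and without NAc CTR 2 and 7 12 and 1. Many ribosomal genes have near-identical copies elsewhere in the genome, so counts of uniquely mapped reads are uncertain for them. Glycolysis had 3 PFC calls and 1 NAc call among 15, and 2 and 0 without NAc CTR 2 and 7, with Ldha, which makes lactate, at -0.93 (FDR = 1.53e-05). The NAc call, Aldoc (0.39, FDR = 0.0313), was lost without any of 8 single libraries, and the PFC call Tpi1 without any of 11.

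Ion channels split by subunit. Potassium channels had 8 PFC calls and 0 NAc calls among 52 with edgeR (15 at an unadjusted p below 0.05). They had 8 and 1 with DESeq2, and 7 and 2 without NAc CTR 2 and 7. The share called with edgeR was 15.38%, beside 6.32% of all genes. Kcnj3, a G protein-gated channel, had medians of 123 and 38.1 CPM (log2 fold change -1.76, SE 0.35, FDR = 0.000387), and its partner Kcnj9 of 126 and 34.3 CPM (log2 fold change -1.67, FDR = 0.00093). Kcnma1, the large-conductance calcium-activated channel, had medians of 400 and 161 CPM (log2 fold change -1.13, FDR = 1.58e-05). Sodium, calcium and HCN channels had 4 NAc and 3 PFC calls among 32 (21.88% called), and 4 and 2 without both libraries. The accessory calcium channel subunits went opposite ways, Cacna2d1 at -1.24 (FDR = 9.81e-05) against Cacna2d2 at 2.13 (FDR = 0.000236) and Cacna2d3 at 1.78 (FDR = 0.000261). The sodium channel beta subunit Scn4b was higher in the NAc, with medians of 46.3 and 234 CPM (log2 fold change 2.51, SE 0.40, FDR = 6.9e-06), and the alpha subunit Scn2a was higher in the PFC with an FDR of 0.0428 (-0.55), which 18 of the 31 libraries could each undo (largest FDR = 0.097).

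Genes of the stress axis and of neuronal activity were examined in these unstressed mice. Of 13 genes of corticosteroid signalling 2 were higher in the PFC and 1, Ddit4, in the NAc (2.21, FDR = 0.0166). The called share was 23.08%, beside 6.32% of all genes. Nr3c1, the glucocorticoid receptor, had medians of 189 and 113 CPM (log2 fold change -0.79, FDR = 0.0378), a call that 13 of the 31 libraries could each undo. Hsp90aa1, its chaperone, had medians of 1417 and 765 CPM (log2 fold change -0.88, SE 0.12, FDR = 8.84e-08). Among 18 immediate early genes Egr1 was called with edgeR, a share of 5.56% beside 6.32% of all genes, with medians of 240 and 98.2 CPM (log2 fold change -1.03, FDR = 0.000853).

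The promoters of 4 of the genes that separate the regions without overlap are shown to place these results on the genome: Tac1 and Slc32a1 from the NAc side, Slc17a7 and Cck from the PFC side. Each is the RefSeq stretch from 250 bases before to 50 after the listed start (GRCm38.p6), 5′ to 3′ on the gene's strand. Capitals mark TGACG, a half-site of the cAMP response element, CAGATG, an E-box form bound by Neurod factors, and AGGTGT, a T-box half-site, each searched on both strands (on the other strand the capitals show the reverse complement).
Tac1 (chr6:7554811-7555110, + strand): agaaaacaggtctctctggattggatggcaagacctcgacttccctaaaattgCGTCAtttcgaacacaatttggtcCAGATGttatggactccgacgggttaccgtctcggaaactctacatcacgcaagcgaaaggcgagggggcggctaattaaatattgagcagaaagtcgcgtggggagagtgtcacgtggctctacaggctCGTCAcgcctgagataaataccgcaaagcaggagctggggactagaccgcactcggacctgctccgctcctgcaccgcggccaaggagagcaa
Slc32a1 (chr2:158610508-158610807, + strand): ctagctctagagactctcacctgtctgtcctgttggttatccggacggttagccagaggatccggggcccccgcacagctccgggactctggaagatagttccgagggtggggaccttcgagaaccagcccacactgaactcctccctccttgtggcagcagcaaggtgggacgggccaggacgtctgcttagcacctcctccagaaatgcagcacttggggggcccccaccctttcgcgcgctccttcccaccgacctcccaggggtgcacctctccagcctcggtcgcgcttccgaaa
Slc17a7 (chr7:45163671-45163970, + strand): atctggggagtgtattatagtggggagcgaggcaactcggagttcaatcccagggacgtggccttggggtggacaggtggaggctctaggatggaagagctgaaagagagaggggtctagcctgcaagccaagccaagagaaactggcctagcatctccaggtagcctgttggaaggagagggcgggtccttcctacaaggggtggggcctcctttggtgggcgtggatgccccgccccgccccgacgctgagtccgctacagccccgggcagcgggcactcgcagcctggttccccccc
Cck (chr9:121495645-121495944, - strand): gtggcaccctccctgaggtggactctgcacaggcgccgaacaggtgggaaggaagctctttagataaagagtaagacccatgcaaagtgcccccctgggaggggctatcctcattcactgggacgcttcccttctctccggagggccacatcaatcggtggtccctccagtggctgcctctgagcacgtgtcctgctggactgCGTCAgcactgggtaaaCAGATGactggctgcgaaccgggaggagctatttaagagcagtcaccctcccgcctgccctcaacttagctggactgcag

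Tac1 had 3 matches and Cck 2, the response element half-site lying 43 bases before the listed start in Tac1 and 47 in Cck. The RefSeq start of Tac1 lies inside the gene span given above, so part of its window is within that span. Slc32a1 and Slc17a7 had 0 matches to these letters in this window. Over all genes tested, 7882 of 9932 had a promoter listed under their symbol, and for genes with several starts the first listed was used. TGACG was present in 34.0% of these 7882 promoters, in 21.8% of the 119 matched promoters of genes at least 2-fold higher in the NAc and in 18.4% of the 163 of genes at least 2-fold higher in the PFC. CAGATG was present in 10.4%, 18.5% and 11.7% of the same sets, and AGGTGT in 790, 12 and 17 promoters of them. The median GC content of the 3 sets was 62.0%, 63.7% and 62.3%. These are counts of letters, and no binding was measured.

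The same contrast in the 15 PFC and 16 NAc libraries of stressed (mCRS) mice, which share no library with those above, gave 196 genes higher in the NAc and 400 higher in the PFC. Of the 628 genes called in unstressed mice, 616 were tested there, 609 had the same direction and 371 were called in it. These 371 are 59.1% of the calls in unstressed mice and 62.2% of those in stressed mice. In the mCRS libraries too, the mtDNA share was lower in the NAc, with a difference of -5.39 percentage points (permutation p = 2e-05). That p is the smallest this doubled two-sided test gives with 100000 resamples. The mean share was higher in the PFC both among mCRS libraries numbered 1 to 8 and among those numbered 9 and above, unlike in unstressed mice. The paper reports that mCRS raised mtDNA gene expression in the PFC, with no such change detected in the NAc. The mCRS difference in mtDNA share is thus not a plain repeat of the unstressed one, and the part of stress in it was not tested.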

How the data were processed

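Counts per gene from BRB-seq were deposited by the authors, who mapped reads with STAR onto mm10 (GRCm38) and counted uniquely mapped reads with HTSeq (0.9.1 in the submitters' processing notes). The counts carry no molecular identifiers, so PCR copies were not removed. Samples were grouped by their labels. The 31 CTR libraries were fitted with edgeR 4.0.16 in R 4.3.3 (TMM factors, filterByExpr with a minimum count of 10, quasi-likelihood test, Benjamini-Hochberg adjustment over the 9932 genes tested), NAc against PFC. The script was tested on simulated data. CPM used a prior count of 2 on the log2 scale. The mtDNA share was compared by permutation with 100000 resamples, or exactly where groups held under 10 libraries. Alternatives included DESeq2 1.42.0, other scalings and filters, and leaving out each library. The p-values treat libraries as independent. Gene spans are from GENCODE on GRCm38. Named genes were the 10 largest called fold changes per direction without overlap, fixed anchor genes, the 3 called members of smallest p per list and direction, and the mtDNA genes. Members, lists and named genes were chosen with earlier results of these data known. Other genes named in the text as list members that were not called, and Zbtb20, Scg2, Isl1, Nts, Meis1, Gng7, Snap25, Slc6a11, Trh, Baiap3 and Hap1, were taken after their values were seen. Some genes are not reported here.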

Additional observations from a re-analysis of the deposited data

How the results depend on the processing

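With DESeq2, 347 genes were higher in the NAc, 223 of them at least 2-fold. In libraries numbered 1 to 8 alone, 63 genes were higher in the NAc and 129 in the PFC, and 54 and 97 at least 2-fold. That setting has fewer libraries. There the log2 fold changes of Rorb (0.113) and mt-Nd5 (0.071) and the difference in mtDNA share (0.0355 percentage points) changed sign, and the mean mtDNA log2 CPM differed by -0.0174. The cause was not tested. Of 192 genes called in numbers 1 to 8 and 463 in the higher numbers, 140 were called in both in the same direction, 72.9% and 30.2% of them. Leaving out each library gave 191 to 219 NAc and 389 to 428 PFC genes, 129 to 155 and 208 to 230 at least 2-fold, and differences in mtDNA share of -2.85 to -2.18 and in mean log2 CPM of -0.44 to -0.34. Gene levels of same-numbered libraries, each taken against its group mean, were hardly correlated (15 pairs, r from -0.026 to 0.021). Libraries of 2 regions from the same mouse could also lack such a correlation, so this cannot tell whether the numbers pair them. With the replicate block 217 and 379 genes were called, 169 and 227 at least 2-fold, the mtDNA share differed by -2.49 (exact permutation p = 0.0209) and the mean by -0.38. Depth limits genes near 0 CPM in 1 region, whose fold changes depend on the prior count.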

Other observations

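Over the 16 NAc libraries the summed CPM of striatal signalling genes fell as that of hypothalamic and septal genes rose (log2 sums, Pearson's r = -0.912, permutation p = 1e-05, the smallest 100000 resamples of the absolute correlation can give, Spearman's rho = -0.876, permutation p = 2e-05). Without NAc CTR 7 and 10, the libraries farthest from the median, r was -0.782 (permutation p = 0.00169). Within numbers 1 to 8 it was -0.922 (exact permutation p = 0.00494) and within the higher numbers -0.946 (exact permutation p = 0.00102). This was the only relation across libraries computed, so no adjustment was made. Both sums share the library's scaling. The matrix gene Sparc, also made by glia, was a large part of the hypothalamic and septal sum. It took 360 of 559 CPM in NAc CTR 10, 672 of 886 in NAc CTR 9 and 2701 of 6419 in NAc CTR 7. The relation without Sparc was not tested.

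Rab31, a small GTPase of vesicle traffic, had a called log2 fold change of -3.15 (SE 0.73, FDR = 0.00211) although its medians were 32.0 CPM in the PFC and 40.7 CPM in the NAc. A single PFC library held 5515 CPM. It was chosen after its values were seen.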
